A study of Mus musculus with 2 samples.

Results

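The 9 genes described here encode transcription factors and transcriptional inhibitors on which T cell development depends: Tcf7, Lef1, Bcl11b, Ikzf1, Ets1, Satb1, Tcf12, Id2 and Id3. The rule was a list of names with no threshold on a measured value, drawn up with earlier results of these data known, and all 9 were found among the 20282 genes of the count matrix. Their transcripts were counted in single thymus cells of 2 libraries made with a 10x Genomics 3′ kit, in which each unique molecular identifier (UMI) stands for 1 captured transcript. The WT library pooled the thymuses of 5 wild-type mice, which the study describes as Cdc42f/f littermates without the Cre transgene. The KO library pooled those of 5 Cdc42f/f CD4Cre littermates, in which Cre driven by the Cd4 promoter removes a floxed exon of Cdc42. All mice were 6 weeks old and both groups carried the floxed allele. The Cd4 promoter becomes active around the CD4 and CD8 double-positive (DP) stage. With 1 pooled library per condition no difference between conditions could be tested, and a difference between the libraries cannot be told apart from one between pools of mice. Intervals are exact 95% counting intervals of UMI sums, and they cover counting error only, not the spread between cells or between mice.

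In the thymus, TCF1 (encoded by Tcf7) and LEF1 are related HMG-box factors that open chromatin at T cell genes and act again when DP cells choose the CD4 or CD8 lineage. E proteins such as HEB (encoded by Tcf12) bind E-box sequences as dimers and hold DP cells in their stage, and the Id proteins, which lack a DNA-binding region, take E proteins out of those dimers after signals through the T cell receptor. Bcl11b fixes T cell commitment, Ikaros (Ikzf1) and Ets1 act from the progenitor stages onward, and SATB1 organises chromatin loops in DP cells.

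Promoter sequence is shown for 3 members whose levels moved differently between the Rag1 and Cd5 groups of cells: Lef1 and Ikzf1, which rose, and Satb1, which did not change by the size used for a step. Each is the 250 bases before the most upstream RefSeq start, on the gene's own strand in GRCm38.p6, at chr3:131110047-131110296 (plus strand) for Lef1, chr11:11685675-11685924 (plus strand) for Ikzf1 and chr17:51833291-51833540 (minus strand) for Satb1. None of these windows overlapped an exon of its own gene in GENCODE vM21. The Ikzf1 window lies inside the gene's annotated span, since GENCODE has an earlier start, and the Lef1 and Satb1 windows overlap exons of the opposite-strand genes Gm43352 and Gm6934. Capitals mark matches on either strand to the E-box CANNTG, to the EGR motif GCGNGGGCG or to CTTTGA, the core of the TCF/LEF motif.
Lef1: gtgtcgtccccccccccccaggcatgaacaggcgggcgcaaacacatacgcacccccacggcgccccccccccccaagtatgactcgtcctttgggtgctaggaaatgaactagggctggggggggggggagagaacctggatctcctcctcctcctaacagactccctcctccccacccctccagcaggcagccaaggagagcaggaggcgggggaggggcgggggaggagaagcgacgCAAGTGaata
Ikzf1: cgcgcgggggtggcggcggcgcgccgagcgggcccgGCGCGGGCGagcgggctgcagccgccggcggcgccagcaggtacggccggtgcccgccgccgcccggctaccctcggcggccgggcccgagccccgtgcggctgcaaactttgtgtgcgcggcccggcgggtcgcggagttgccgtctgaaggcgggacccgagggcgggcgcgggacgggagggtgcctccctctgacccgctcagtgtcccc
Satb1: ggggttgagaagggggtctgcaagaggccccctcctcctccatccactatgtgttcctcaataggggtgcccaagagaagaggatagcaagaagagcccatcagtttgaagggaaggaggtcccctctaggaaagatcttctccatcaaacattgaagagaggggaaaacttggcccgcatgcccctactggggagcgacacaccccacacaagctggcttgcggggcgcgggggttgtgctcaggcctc
The Lef1 window held 1 E-box, CAAGTG, that began 10 bases before the start. The Ikzf1 window held 1 EGR match, GCGCGGGCG, that began 214 bases before the start. The Satb1 window held no match to any of the 3 motifs. Of 32851 RefSeq promoter windows of this length, 66.2% held an E-box, 4.70% an EGR match and 13.8% a TCF/LEF core, and a match is a description of letters, not of a binding site.

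The WT library held 6115 cells and 29706197 UMIs and the KO library 7568 cells and 37920214 UMIs, with median depths of 3192 and 3401 UMIs per cell, and 17 cell barcodes occurred in both. Cells were taken by the 19 deposited clusters, and 13 of these were joined into 5 stage groups named by leading genes: a proliferating group (686 WT and 737 KO cells), a Rag1 group (3636 and 4641), a Cd5 group (535 and 843), an Itm2a cluster (479 and 316) and a Ms4a4b cluster (332 and 396). Levels are UMI counts scaled to a total of 1000000 for the group and library (CPM), and they are compared between groups of cells, not between genes. Listed markers fitted a DP-like Rag1 group and a single positive (SP)-like Ms4a4b cluster: the summed level of 8 DP markers was 12062 CPM in the WT Rag1 group and 1449 in the Ms4a4b cluster, while that of 7 mature SP markers was 181 and 3854. In the Itm2a cluster the mature SP sum was lower, at 1254 CPM in the WT and 926 in the KO library, beside DP sums of 2073 and 2685 and sums of 6 signalled DP markers of 2830.3 and 3704, so that cluster is called by its leading gene alone. Cdc42 itself was counted at 418, 358, 455, 397, 447 CPM in these 5 WT groups and at 349.6, 320.4, 383, 383, 581 in the KO groups, but 3′ reads need not cover the deleted exon, so this does not check the labels. Cell names write Cdc45 where the sample labels write cdc42, and every direction rests on the WT and KO labels. The clusters were built from the same cells' expression, so a change from one group to the next is a description. For each member the levels are given in the order of these groups: proliferating, Rag1, Cd5, Itm2a and Ms4a4b.

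A change between neighbouring groups was counted as a step where the log2 ratio was 1 or more in size. In both libraries the fewest members did so at the last step, and the directions of the called steps were alike. From the proliferating to the Rag1 group 4 members rose by a log2 ratio of 1 or more in the WT library (Bcl11b, Ets1, Satb1 and Tcf12) and 3 in the KO library, where Bcl11b stood at 0.999, just under that size, and none fell. Of all genes with at least 20 UMIs, 38.5% and 39.5% changed that much at this step. Steps were counted from 0, while the all-gene median here was 0.37 in the WT and 0.40 in the KO library. Under other processing the lowest WT values were 0.75 for Bcl11b, 0.82 for Ets1 and 0.94 for Satb1, all under that size, and 1.0008 for Tcf12. The lowest KO values were 0.65 for Bcl11b, 0.88 for Ets1, 1.06 for Satb1 and 1.05 for Tcf12. From the Rag1 to the Cd5 group Lef1, Ikzf1, Id2 and Id3 rose and Tcf12 fell in both libraries, 5 of 9 members against 15.1% and 14.2% of all genes. Of these, Id2 went from a level not read as expression to another such level, by its share of cells beside a background cluster. From the Cd5 group to the Itm2a cluster Id2 rose in both libraries. Tcf7, Ikzf1, Tcf12 and Id3 fell that much in the WT library and Tcf12 and Id3 in the KO library, beside 15% and 10.0% of all genes. The WT values of Tcf7, -1.02 (-1.10 to -0.94), and Ikzf1, -1.06 (-1.19 to -0.93), lay just past that size, beside -0.76 and -0.73 in the KO library. Under other processing WT Tcf7, Ikzf1 and Tcf12 came to -0.81, -0.89 and -0.96, short of it. The all-gene median was -0.15 in the WT and -0.031 in the KO library. From the Itm2a to the Ms4a4b cluster Satb1 fell in both libraries and Id2 in the KO library, beside 10.4% and 11.6% of all genes.

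**Figure D1:**
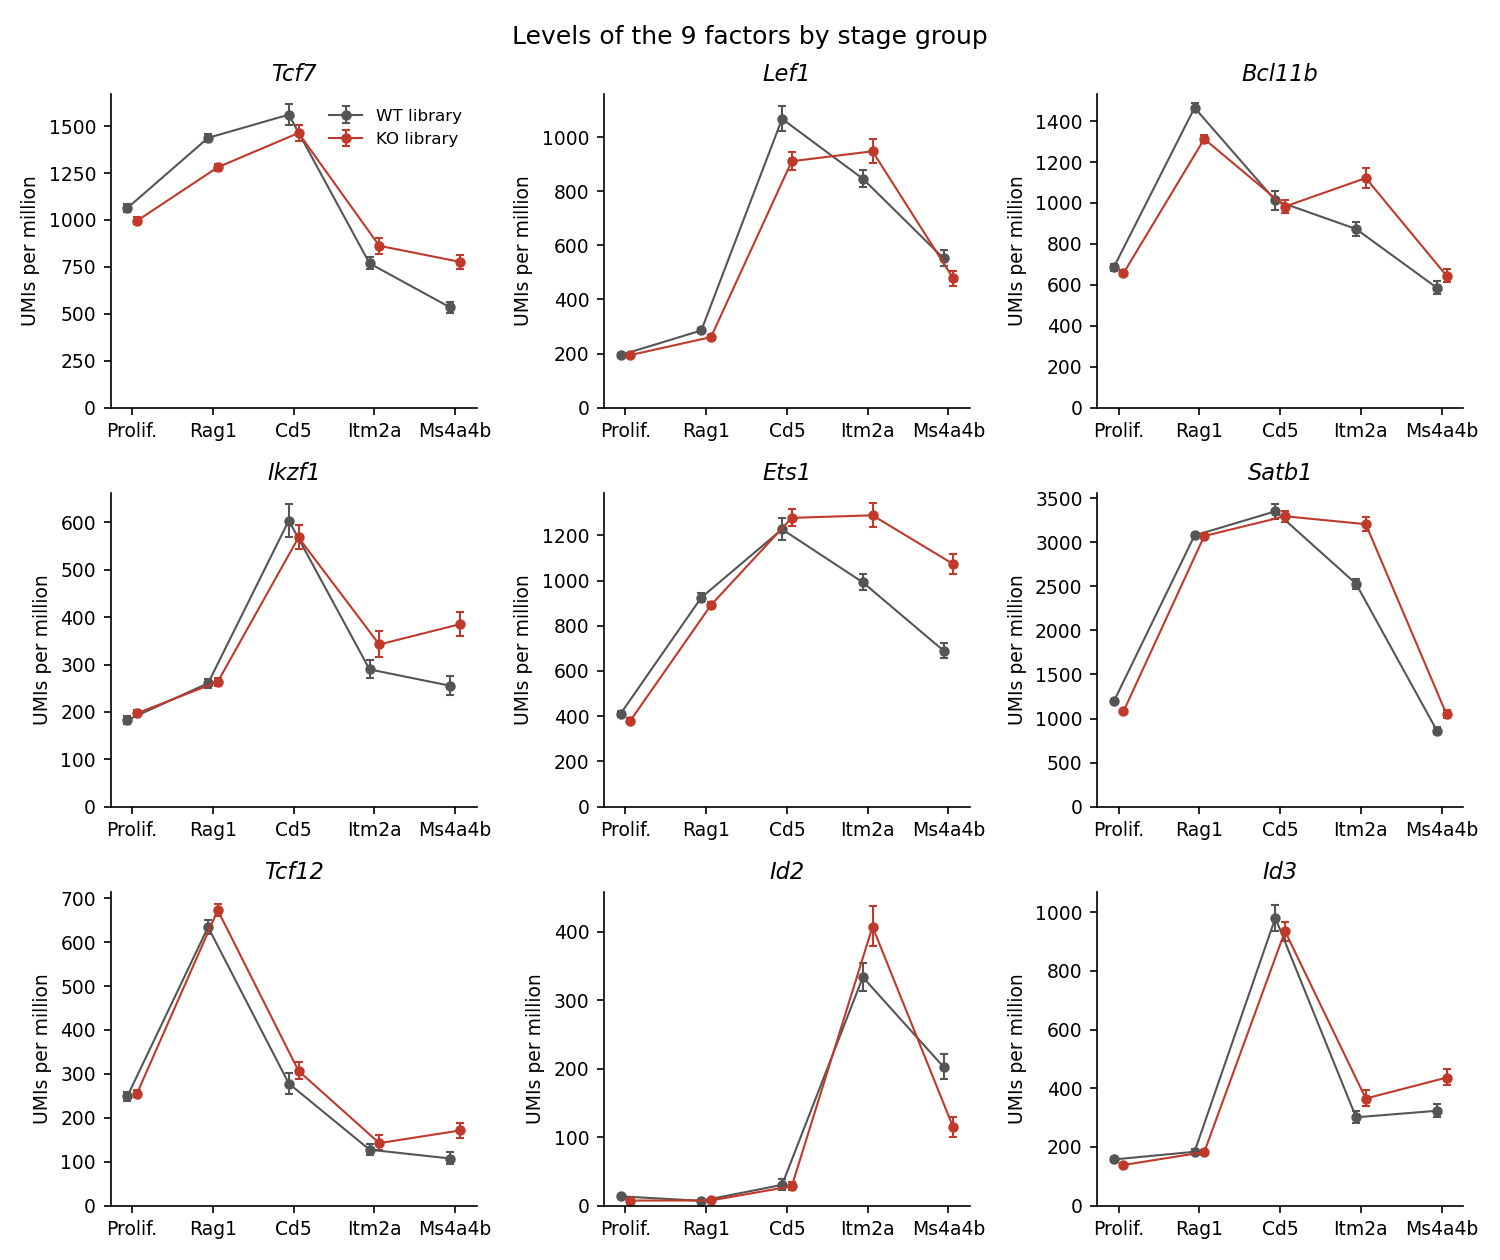
Level of each factor in CPM (y axes, linear, from 0) in the 5 stage groups (x axis) of the WT (grey) and KO (red) libraries, with exact 95% counting intervals as bars. Id3 peaked in the Cd5 group and Id2 in the Itm2a cluster in both libraries, and Id2 was lower in the KO than in the WT library beyond the intervals in the Ms4a4b cluster and, at a level not read as expression, in the proliferating group.

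Tcf7 (chromosome 11, 52252371 to 52283014, minus strand, GRCm38) and Lef1 (chromosome 3, 131110471 to 131224356, plus strand) parted at the Cd5 group. Tcf7 levels were 1063, 1438, 1561, 769 and 534 CPM in the WT library. In the KO library they were 996, 1281, 1464, 863 and 777. Both libraries had the highest level in the Cd5 group and the lowest in the Ms4a4b cluster. Lef1 levels were 194, 286, 1068, 847 and 552 CPM in the WT library and 194, 261, 911, 948 and 478 in the KO library. The log2 ratio of the Itm2a cluster over the Cd5 group was -0.33 (-0.42 to -0.25) in the WT and 0.057 (-0.028 to 0.14) in the KO library, so Lef1 stayed near its raised level in both. Lef1 rose 3.74-fold from the Rag1 to the Cd5 group in the WT and 3.49-fold in the KO library, while the same ratio for Tcf7 was 1.09 and 1.14. Lef1 UMIs per Tcf7 UMI went from 0.199 (0.191 to 0.206) in the WT Rag1 group through 0.684 (0.646 to 0.724) in the Cd5 group to 1.10 (1.04 to 1.17) in the Itm2a cluster, and was 1.03 (0.956 to 1.12) in the Ms4a4b cluster. In the KO library the same ratio was 0.204 (0.197 to 0.211), 0.623 (0.595 to 0.651), 1.10 (1.03 to 1.18) and 0.615 (0.570 to 0.664). The intervals of the libraries overlapped in the Rag1 and Cd5 groups and the Itm2a cluster and stood apart in the Ms4a4b cluster, where the KO library had fewer Lef1 UMIs per Tcf7 UMI.

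Bcl11b (chromosome 12, 107910403 to 108003602, minus strand), which encodes the zinc finger factor of T commitment, had levels of 686, 1465, 1012, 873 and 586 CPM in the WT library. The KO levels were 657, 1313, 983, 1122 and 645. It was highest in the Rag1 group in both libraries. Ikzf1 (chromosome 11, 11685003 to 11772926, plus strand), which encodes the zinc finger factor Ikaros, had levels of 183, 260.4, 604, 289.7 and 255 CPM in the WT and 197, 264, 568, 342 and 385 in the KO library. Its peak in the Cd5 group was 2.32-fold over the Rag1 group in the WT and 2.16-fold in the KO library. The log2 ratio of the Itm2a cluster over that peak was -1.06 (-1.19 to -0.93) in the WT and -0.73 (-0.86 to -0.60) in the KO library.

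Ets1 (chromosome 9, 32636221 to 32757820, plus strand), which encodes the ETS factor that Ets genes are named for, had levels of 411, 925, 1227, 992 and 689.7 CPM in the WT and 379.6, 891, 1277, 1288 and 1072 in the KO library. It was lowest in the proliferating group in both libraries. The log2 ratio of the Itm2a cluster over the Cd5 group was -0.31 (-0.38 to -0.23) in the WT and 0.013 (-0.060 to 0.085) in the KO library, smaller than the size used for a step in both. Satb1 (chromosome 17, 51736187 to 51833290, minus strand), which encodes the chromatin organiser, had levels of 1193, 3077, 3351, 2529 and 864 CPM in the WT and 1081, 3070.5, 3295, 3205 and 1048 in the KO library. The ratio of the Cd5 over the Rag1 group was 1.09 in the WT and 1.07 in the KO library, and Satb1 fell to 0.342 of its Itm2a cluster level in the WT and 0.327 in the KO Ms4a4b cluster.

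Tcf12 (chromosome 9, 71842688 to 72111871, minus strand), the E protein gene among the members, had levels of 249, 634, 278, 127 and 107 CPM in the WT and 255, 673, 307, 142 and 171 in the KO library. It was highest in the Rag1 group and fell at each of the next 2 steps, with log2 ratios of -1.19 (-1.32 to -1.06) and -1.13 (-1.32 to -0.93) in the WT and -1.13 (-1.22 to -1.04) and -1.11 (-1.31 to -0.91) in the KO library. The last step, from the Itm2a to the Ms4a4b cluster, had log2 ratios of -0.25 (-0.48 to -0.015) and 0.26 (0.037 to 0.50).

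The Id genes, whose products hold E proteins off DNA, followed each other. Id3 (chromosome 4, 136143497 to 136145755, plus strand) had levels of 157, 184, 980.4, 301 and 323 CPM in the WT and 139, 182, 935, 365 and 436 in the KO library. It rose 5.34-fold and 5.13-fold from the Rag1 to the Cd5 group and then fell, with log2 ratios of -1.70 (-1.82 to -1.59) and -1.36 (-1.48 to -1.24). Id2 (chromosome 12, 25093799 to 25097140, minus strand) had levels of 13.6, 7.09, 30.4, 334 and 203 CPM in the WT and 7.46, 7.61, 28.4, 408 and 114 in the KO library. It was highest in the Itm2a cluster in both libraries, where 1019 and 767 Id2 UMIs were counted. No fold of that cluster is given over the earlier groups, whose shares of cells with an Id2 UMI lay below those of a macrophage-like background cluster. Id2 gave 3.01% of the Id2 and Id3 UMIs in the WT Cd5 group and 2.94% in the KO group, and 52.6% and 52.8% in the Itm2a cluster. The share of Id2 was thus nearly the same in both libraries in these groups and parted in the Ms4a4b cluster, at 38.5% in the WT and 20.8% in the KO library.

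Set against the E protein genes Tcf12, Tcf3 and Tcf4 together, Id2 and Id3 UMIs were more numerous in the Cd5 group and later clusters than in the Rag1 group. In the proliferating group the ratio was 0.448 (0.422 to 0.474) in the WT and 0.363 (0.344 to 0.383) in the KO library. There were 0.239 (0.228 to 0.251) Id UMIs per E protein UMI in the WT Rag1 group, 2.35 (2.17 to 2.55) in the Cd5 group, 2.96 (2.71 to 3.24) in the Itm2a cluster, with 3.16 (2.81 to 3.55) in the Ms4a4b cluster. The KO values were 0.227 (0.218 to 0.236), 2.10 (1.97 to 2.23), 3.11 (2.80 to 3.46) and 2.20 (1.99 to 2.44), so the intervals overlapped from the Rag1 group to the Itm2a cluster and the KO library was lower in the proliferating group and the Ms4a4b cluster. UMIs of different genes need not be captured equally, so the ratio is compared only between groups of cells. In the Ms4a4b cluster the order of the libraries turned in an alternative chosen after the values were seen. It left out every cell that held a UMI of a 6-gene list of natural killer (NK), NKT or innate lymphoid (ILC) cell markers. The ratio was then 2.29 in the WT and 2.60 in the KO library. This took out 144 WT and 102 KO cells, and whether they were NK, NKT or ILC cells was not tested. Nor was the part of depth in that split, at medians of 6737.5 and 5032 UMIs in the cluster.

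Among the clusters that make up a group the members varied more in the proliferating group than in the Rag1 group, apart from Id3 in the KO library. There the highest Id3 level was 1.157 times the lowest over the proliferating and 1.162 times over the Rag1 clusters. Over the 4 proliferating clusters the highest level was 3.24 times the lowest for Satb1 in the WT and 3.25 times in the KO library, 2.89 and 2.92 times for Bcl11b and 2.67 and 2.58 times for Ets1. Over the 5 Rag1 clusters the same ratios were 1.16 and 1.18, 1.18 and 1.18, and 1.17 and 1.18. The spread within the proliferating group was thus alike in both libraries for these 3 members, which had the widest spread there apart from Id2.

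**Figure D2:**
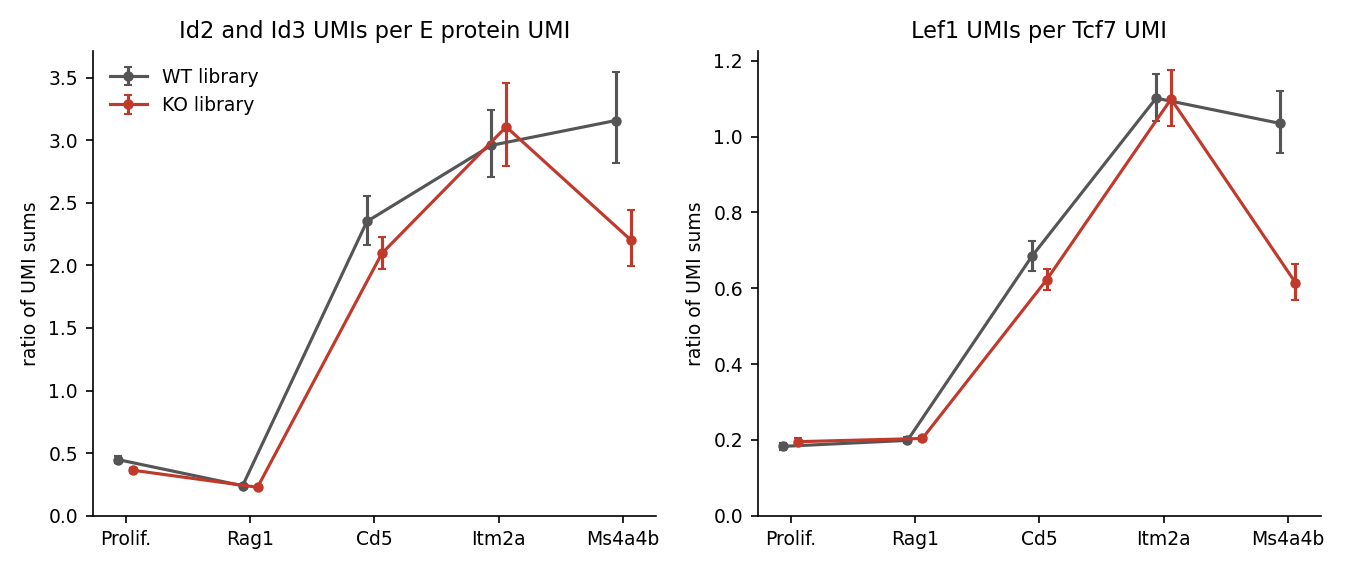
Left, Id2 and Id3 UMIs per UMI of Tcf12, Tcf3 and Tcf4; right, Lef1 UMIs per Tcf7 UMI, in the 5 stage groups (x axis) of the WT (grey) and KO (red) libraries, with exact 95% counting intervals. Both ratios rise at the Cd5 group, and the Id ratio of the libraries parts in the proliferating group (0.448 WT, 0.363 KO) and the Ms4a4b cluster (3.16 and 2.20), where the order turns to 2.29 and 2.60 without cells with a UMI of the NK, NKT or ILC list. The Lef1 ratio parts in the Ms4a4b cluster.

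The KO and WT libraries were then compared within each stage group, a member being counted as different where its log2 ratio lay at least 0.5 away from the all-gene median. Up to the Cd5 group the KO over WT ratios of the members were small except for Id2, which few cells carried. In the proliferating group only Id2 passed that size, 1 of 9 members beside 10.8% of all genes with 20 or more UMIs, and in the Rag1 and Cd5 groups none did, beside 10.4% and 14.1%. The low Id2 ratio of the proliferating group, -0.86 (-1.26 to -0.48), rested on few cells, since 70 of its 136 WT UMIs lay in 1 cell. Without the 5% of cells with most UMIs it was -0.13. Smaller differences stood outside counting error where counts were high. Tcf7, Bcl11b and Lef1 were lower in the KO Rag1 group, with log2 ratios of -0.17 (-0.20 to -0.14), -0.16 (-0.19 to -0.13) and -0.13 (-0.20 to -0.062), and Lef1 was lower in the KO Cd5 group at -0.23 (-0.31 to -0.15). The all-gene median was 0.049 and 0.037 in these groups, and the spread between pools of mice was not measured.

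**Figure D3:**
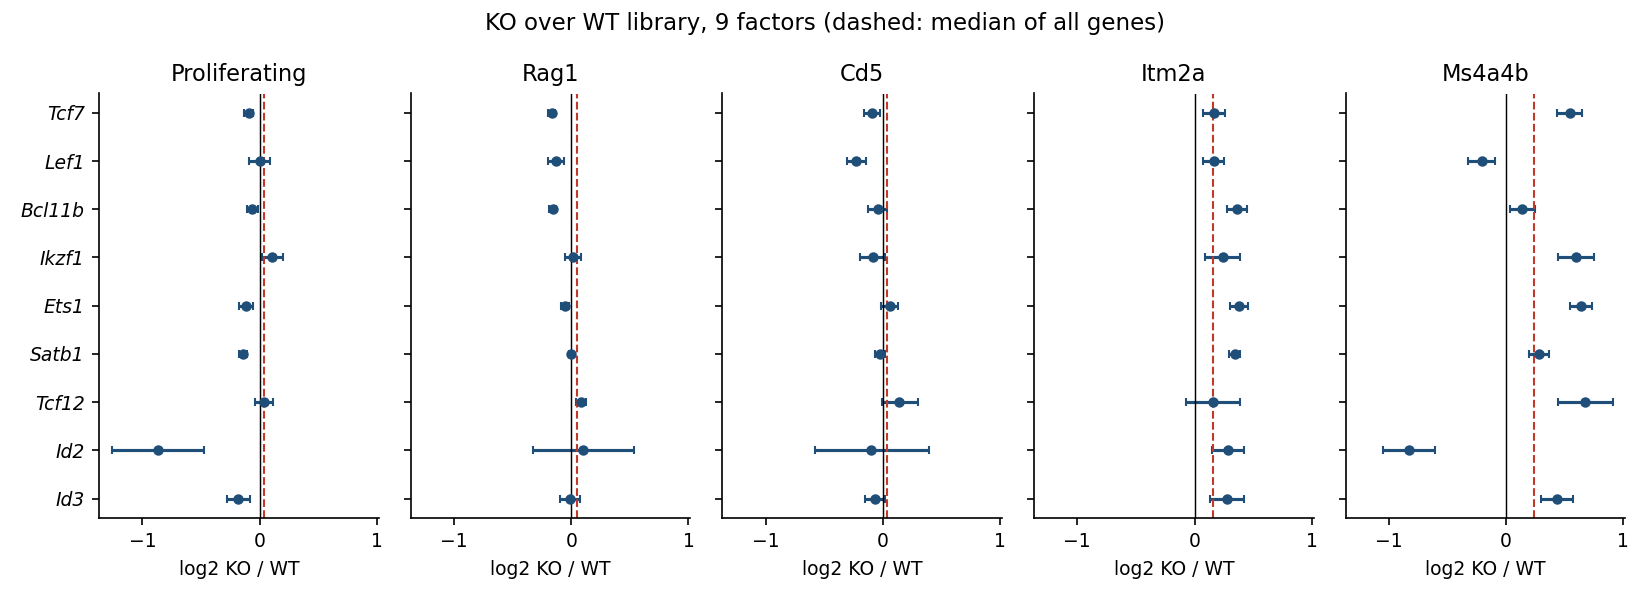
Log2 ratio of the KO over the WT library (x axes) for each factor (y axis) in the 5 stage groups, with exact 95% counting intervals, a solid line at 0 and a dashed red line at the all-gene median. Apart from Id2 in the proliferating group the points lie near 0 up to the Cd5 group. They lie at or right of the dashed line in the Itm2a cluster, where Tcf7, Lef1 and Tcf12 turn just below 0 under TMM scaling, and spread most in the Ms4a4b cluster, from Id2 at -0.83 to Tcf12 at 0.67.

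In the Itm2a cluster the 9 members had a median log2 ratio of 0.28 of the KO over the WT library, against 0.16 for all genes. All 9 ratios were above 0, but those of Tcf7 and Lef1 lay at the all-gene median and turned to -0.0020 and -0.0049 with TMM scaling, and that of Tcf12 to -0.0073. None of the 9 members lay at least 0.5 away from that median, beside 19.2% of all genes. Ets1 (0.38, 0.30 to 0.45), Bcl11b (0.36, 0.28 to 0.44) and Satb1 (0.34, 0.29 to 0.39) had intervals above the all-gene median. The ribosomal protein genes took 23.2% of UMIs in the WT and 16.98% in the KO cluster, and with totals that left out ribosomal protein and mitochondrial genes the all-gene median was 0.046 and that of the members 0.17. The cluster was not of the same make-up in both libraries. At the finer deposited resolution of 1.8 it split into an Itm2a-higher part with 142 WT and 160 KO cells and an Itm2a-lower part with 316 and 132, besides a small part of 19 and 21 cells. In the Itm2a-higher part the intervals of these 3 members held 0, with Ets1 at 0.095 (-0.022 to 0.21), Bcl11b at -0.0030 (-0.12 to 0.12) and Satb1 at -0.062 (-0.13 to 0.0088). Satb1 itself was higher in that part, at 4110.1 CPM in the WT and 3938 in the KO library, than in the Itm2a-lower part, at 2114 and 2776. In the Itm2a-lower part Satb1 (0.39, 0.32 to 0.46), Ets1 (0.37, 0.26 to 0.49), Bcl11b (0.35, 0.23 to 0.48) and Id3 (0.53, 0.34 to 0.72) were higher in the KO library. Itm2a was also higher there in the KO library, at 0.54 (0.45 to 0.62), and Ms4a4b lower, at -0.78 (-1.002 to -0.56), so the KO cells of that part stood nearer to the Itm2a-higher part by these markers. Whether the factors' differences followed from that position was not tested.

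**Figure D4:**
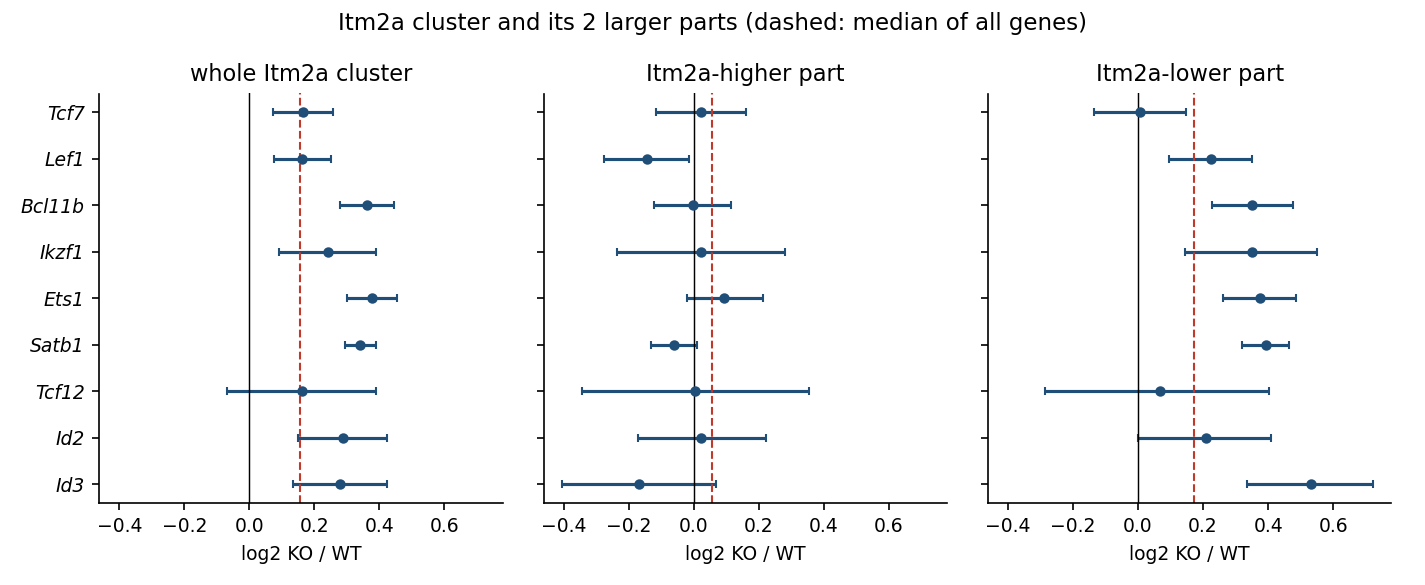
Log2 ratio of the KO over the WT library (x axes) for each factor (y axis) in the whole Itm2a cluster and in its 2 larger parts at resolution 1.8, with exact 95% counting intervals, a solid line at 0 and a dashed red line at the all-gene median. Ets1, Bcl11b and Satb1 lie right of the dashed line in the whole cluster and in the Itm2a-lower part (316 WT and 132 KO cells), and their intervals hold 0 in the Itm2a-higher part (142 and 160 cells).

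The Ms4a4b cluster held the widest differences, with a median of the members of 0.43. Id2 was the 1 member of 9 that lay at least 0.5 away from the all-gene median of 0.24, beside 26.5% of all genes, and among genes with at least 100 UMIs 17.5% did so. Tcf12 (0.67, 0.44 to 0.91), Ets1 (0.64, 0.55 to 0.73), Ikzf1 (0.59, 0.44 to 0.75), Tcf7 (0.54, 0.44 to 0.65) and Id3 (0.43, 0.29 to 0.57) were higher in the KO library, with intervals above that median. By coreceptor UMIs Tcf12 was at 1.18 (0.77 to 1.62) in cells with both Cd4 and Cd8a or Cd8b1 UMIs, 21.4% of WT and 29.8% of KO cells. In cells with Cd8a or Cd8b1 UMIs alone, Cd4 UMIs alone or neither, Tcf12 was at 0.16, 0.25 and 0.33, with intervals that held 0. Lef1, the other member below 0, was at -0.21 (-0.33 to -0.091). Satb1 (0.28, 0.19 to 0.37) and Bcl11b (0.14, 0.031 to 0.25) had intervals that held the all-gene median, and Bcl11b turned to -0.12 with TMM and -0.083 with DESeq2 scaling. The ribosomal protein share was 29.8% in the WT and 21.2% in the KO cluster, and without ribosomal protein and mitochondrial genes in the totals the all-gene median was 0.071 and that of the members 0.26. The median depth was 6737.5 and 5032 UMIs, the summed mature SP markers 3854 and 5467 CPM and the summed DP markers 1449 and 1785 CPM. With each cell thinned to 1000 UMIs the members' median was 0.34, and the part of the cells behind the SP and DP markers was not tested.

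Id2, at 203 CPM in the WT and 114 in the KO Ms4a4b cluster (log2 ratio -0.83, -1.05 to -0.61), lay in few cells. UMIs of it were found in 103 of 332 WT and 63 of 396 KO cells, and the top 5% of cells held 60.0% and 79.9% of them. Cells with a UMI of Nkg7, Klrb1c, Zbtb16, Gzma, Fcer1g or Il2rb, the NK, NKT or ILC list, numbered 144 WT and 102 KO cells and held 422 of 472 and 192 of 259 Id2 UMIs. Within those cells Id2 was at 348 in the WT and 246 in the KO library, a log2 ratio of -0.50 (-0.75 to -0.25). In the remaining 188 WT and 294 KO cells it was at 44.8 and 45.1, a log2 ratio of 0.0058 (-0.54 to 0.57). The lower Id2 of the KO cluster was thus seen among cells with such UMIs, while the wide interval of those without held 0, a split chosen after the values were seen. The whole list summed to 663 and 653 CPM in the 2 libraries, while Zbtb16, the factor of NKT cells, was at 12.5 and 2.21 and Foxp3, of regulatory T cells, was at 24.9 in the WT and without a UMI in the KO library, where a count of 0 allows up to 3. The gamma-delta T cell list summed to 233 and 420.0 and the regulatory T cell list to 159 and 99.7. Without the cells with a UMI of any of the 3 lists, which left 94 WT and 182 KO cells, Id2 was at -0.049 (-0.96 to 0.93), Ets1 at 0.50 (0.35 to 0.66), Tcf7 at 0.36 (0.17 to 0.55), Id3 at 0.67 (0.41 to 0.95) and Lef1 at -0.18 (-0.38 to 0.019).

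By coreceptor UMIs, Id2 in the Ms4a4b cluster went from 199 CPM in the WT to 33.3 in the KO library in cells with Cd8a or Cd8b1 but no Cd4 UMI (-2.55, -3.37 to -1.88 on the log2 scale, from 163 and 18 UMIs). It went from 199 to 82.3 in cells with Cd4 UMIs alone, at -1.26 (-1.87 to -0.71). In cells with neither it stood at 337 and 312, at -0.11 (-0.44 to 0.21). In cells with both, Id2 was at 87.4 and 58.0, at -0.59 (-1.22 to 0.035). The NK, NKT or ILC list was lower in the KO library in the CD8-only cells, at sums of 1003 and 523, and in the CD4-only cells, at 223 and 48.0. It was higher in cells with neither, at 1069 and 1374, and in cells with both, at 179 and 609. In the cells with neither and in those with both the Id2 intervals held 0, and the list's part in the Id2 values was not tested.

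**Figure D5:**
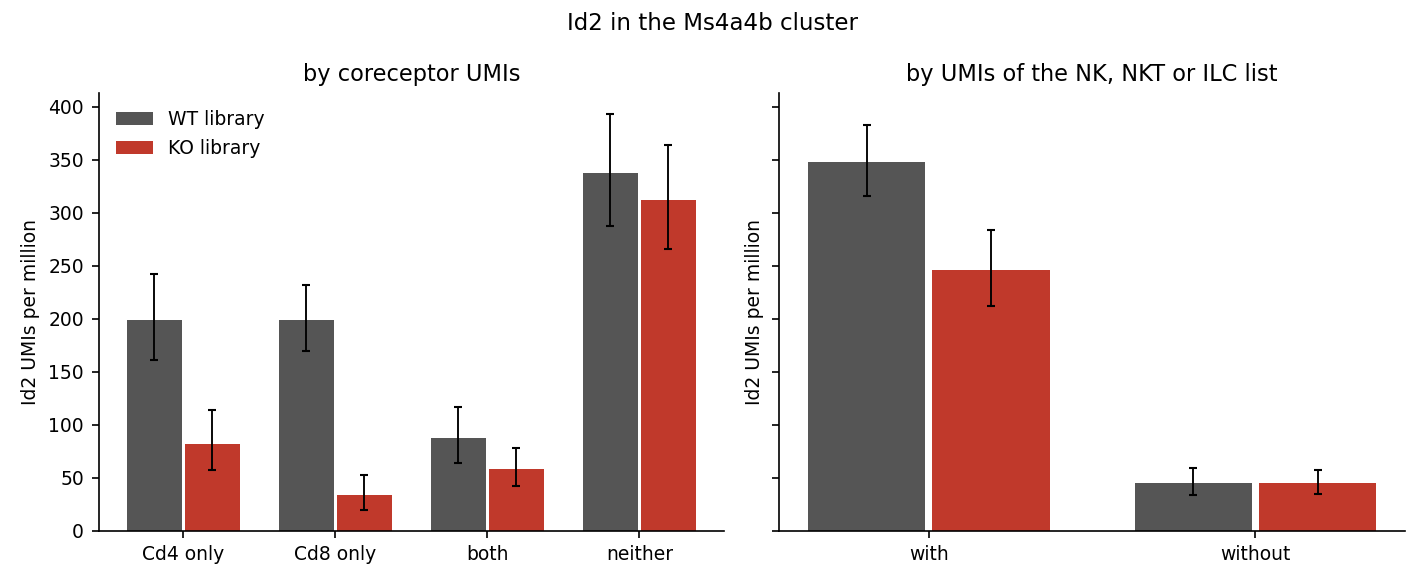
Id2 level in CPM (y axis, from 0) in the Ms4a4b cluster of the WT (grey) and KO (red) libraries, by the coreceptor UMIs of each cell (left) and by whether the cell held a UMI of the NK, NKT or ILC list (right), with exact 95% counting intervals. By ratio the libraries are furthest apart in Cd8-only cells, 199 against 33.3, and they are level in cells without the list's UMIs, 44.8 against 45.1.

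CD8-only and CD4-only cells were then compared over the Itm2a and Ms4a4b clusters, with 245 CD8-only and 206 CD4-only cells in the WT and 162 and 168 in the KO library. The Ms4a4b cluster gave 106 and 76 of these in the WT and 97 and 90 in the KO library, so pooled ratios mix the clusters unequally. The split by coreceptor UMIs was checked on lineage factors: the log2 ratio of CD8-only over CD4-only cells was 2.17 (1.79 to 2.59) and 2.10 (1.58 to 2.68) for Runx3, of the CD8 lineage, and -2.62 (-3.47 to -1.91) and -1.55 (-2.32 to -0.88) for Zbtb7b, of the CD4 lineage. Gata3, also computed, was at -1.52 (-1.94 to -1.12) and -0.46 (-0.78 to -0.15), and Tox at -0.48 (-0.70 to -0.27) and -0.36 (-0.62 to -0.10). Within the KO Itm2a cluster alone the intervals of Gata3 and Tox held 0, while those of Runx3 and Zbtb7b did not. Over both clusters pooled, Ets1, Satb1 and Bcl11b were lower in CD8-only cells in both libraries. The ratios were -0.37 (-0.48 to -0.25) in the WT and -0.42 (-0.55 to -0.30) in the KO library for Ets1 and -0.32 (-0.45 to -0.19) and -0.29 (-0.45 to -0.13) for Bcl11b. They were -0.32 (-0.40 to -0.24) and -0.36 (-0.46 to -0.26) for Satb1, although Satb1 in the KO library stood at 0.041 (-0.15 to 0.24) within the Ms4a4b cluster alone. In the WT library Satb1 stood at -0.052 (-0.14 to 0.038) within the Itm2a cluster alone. Bcl11b was there at -0.14 (-0.30 to 0.018) and -0.049 (-0.25 to 0.15), and at -0.53 (-0.75 to -0.32) and -0.37 (-0.62 to -0.11) within the Ms4a4b cluster. Ets1 had intervals below 0 within each cluster in both libraries. Lef1 had ratios of -0.36 (-0.49 to -0.24) in the WT and -1.02 (-1.19 to -0.85) in the KO library, and Id2 of -1.08 (-1.29 to -0.87) and -2.28 (-2.71 to -1.89). Over both clusters pooled these 2 members differed more between CD8-only and CD4-only cells in the KO library, with intervals that did not overlap, though the difference between libraries was not tested over mice. Id3 had pooled intervals that held 0, at 0.11 (-0.075 to 0.31) and -0.028 (-0.23 to 0.18). In the KO library Id3 was at -0.55 (-0.91 to -0.20) within the Itm2a cluster and at 0.19 (-0.071 to 0.46) within the Ms4a4b cluster. The WT values within these clusters were 0.044 (-0.21 to 0.30) and 0.16 (-0.13 to 0.46). Pooled, Tcf7 was at -0.19 (-0.32 to -0.059) and 0.090 (-0.070 to 0.25), Ikzf1 at -0.19 (-0.39 to 0.011) and -0.29 (-0.51 to -0.072) and Tcf12 at 0.47 (0.15 to 0.81) and 0.12 (-0.27 to 0.51). Tcf7 was at -0.039 (-0.20 to 0.12) in the WT and 0.32 (0.090 to 0.55) in the KO library within the Itm2a cluster. Within the Ms4a4b cluster Tcf7 was at -0.34 (-0.56 to -0.12) and -0.094 (-0.32 to 0.13). Within the Itm2a cluster alone Lef1 was at -0.54 (-0.70 to -0.38) in the WT and -1.22 (-1.46 to -0.99) in the KO library, and its level in CD4-only cells was 894 and 1297 CPM, against 615 and 555 in CD8-only cells. Id2 was there at -1.63 (-1.92 to -1.35) and -2.19 (-2.70 to -1.74), with intervals that overlapped. Within the Ms4a4b cluster alone Lef1 was at 0.043 (-0.17 to 0.26) and -0.43 (-0.70 to -0.16), and Id2 at 0.0011 (-0.37 to 0.38) and -1.29 (-2.21 to -0.45). The intervals of the libraries thus stood apart in the Itm2a cluster for Lef1 and in the Ms4a4b cluster for Id2, and overlapped in the other cluster for each. In the Ms4a4b cluster the NK, NKT or ILC list differed between the libraries in the same cells, at the sums of 1003 and 523 CPM in CD8-only and 223 and 48.0 in CD4-only cells, and its part in the Id2 values was not tested.

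Shares of cells with a UMI were compared at equal depth, since median depths were 2823 and 3097 UMIs in the Rag1 group and 5714 and 5363 in the Itm2a cluster. After each cell was thinned to 1000 UMIs, with exact 95% binomial intervals in parentheses, Id3 was found in 15.9% (14.7 to 17.1) of WT Rag1 group cells and 49.4% (45.1 to 53.8) of Cd5 group cells, and in 15.7% (14.6 to 16.8) and 49.3% (45.8 to 52.7) in the KO library. Unthinned shares were 33.9% and 73.8% in the WT and 36.8% and 75.0% in the KO library. Id2 was found in 0.639% (0.406 to 0.957) of thinned WT Rag1 group cells, 21.3% (17.7 to 25.2) of Itm2a and 12.7% (9.30 to 16.8) of Ms4a4b cluster cells, and in 0.691% (0.473 to 0.974), 25.1% (20.4 to 30.2) and 7.07% (4.75 to 10.1) in the KO library, with unthinned shares of 1.82%, 52.0% and 31.0% and of 2.33%, 52.2% and 15.9%. Macrophage-like cells of the Apoe cluster, at median depths of 875 and 695 UMIs, gave a background. Unthinned, Id3 was found in 3.33% of 30 WT and 2.04% of 49 KO cells of that cluster, Id2 in 10.0% and 10.2%, and Satb1, the member with most UMIs, in 16.7% and 16.3%. Only 10 WT and 13 KO cells of it were deep enough to thin. The Id3 shares stood above that level in both groups of cells, whereas the unthinned Id2 shares of the proliferating (6.71% and 7.33%), Rag1 and Cd5 (6.17% and 6.52%) groups lay below it and are not read as expression. The Id2 background rested on 3 WT and 5 KO cells with a UMI, and whether macrophage-like cells carry Id2 of their own was not tested. As UMI counts, Id2 in the Cd5 group was 4.30-fold (3.00 to 6.11) its Rag1 group level in the WT and 3.73-fold (2.82 to 4.92) in the KO library. That was beyond counting error, but the shares of both groups lay below the background, so no rise in expression is read from it.

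The other clusters held fewer cells than the stage groups. In the Myl10 cluster (54 WT and 99 KO cells), whose double-negative marker list summed to 2797 and 2940.5 CPM, Bcl11b was at 1087 in the WT and 1223 in the KO library and Id3 at only 45.3 and 65.6. By the log2 ratio of KO over WT, the members with intervals above the all-gene median of 0.021 were Tcf12, Satb1, Ikzf1 and Bcl11b. They were at 0.50 (0.23 to 0.79), 0.40 (0.19 to 0.63), 0.57 (0.18 to 0.98) and 0.17 (0.027 to 0.32). Only Ikzf1 lay at least 0.5 away from that median, and the share of all genes that did so was not computed for this cluster. The sum of the double-negative marker list hid markers that moved apart: Myl10 was at 1628 in the WT and 1211 in the KO library, while Il2ra was at 511 and 758, Ptcra at 307 and 425, Hes1 at 228 and 354 and Notch3 at 99.98 and 154 CPM. The part of these markers in the differences of the factors was not tested. Gamma-delta markers were also present there, at 2449 and 2253. In the Cd74 cluster (63 and 87 cells) Id2 was at 350.1 in the WT and 79.1 in the KO library and Id3 at 27.3 and 209. That cluster mixed cell types differently: B cell markers summed to 3719 and 38670.2, dendritic cell markers to 5783 and 3349, and median depth was 1202 and 4284 UMIs, and their part in the Id values was not tested. Cluster 18 (24 and 8 cells), with both SP and proliferation markers, had Lef1 at 509 and 241 and Id2 at 49.96 and 227, of which 20 of 32 KO UMIs were in 1 cell. The RNA-poor Lars2 cluster (250 and 366 cells, median mitochondrial share 18.6% and 15.7%) carried Satb1 at 3374 and 3310.2, beside 3077 and 3070.5 in the Rag1 group. In cluster 17 (26 and 26 cells) Tcf7 was at 583 and 901 with 17 and 38 UMIs.

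Partners and relatives of the 9 factors were counted by list, by the same distance of 0.5 from the all-gene median, to which higher and lower refer. In the Cd5 group 1 of 10 TCF/LEF relatives was higher and 3 were lower, beside 14.1% of all genes, and in the Rag1 group 0 of 10 differed, beside 10.4%. None of the 13 Ikaros relatives and NuRD subunits differed in the Rag1 or the proliferating group, where 10.8% of all genes did. Of 11 TCF/LEF relatives and cofactors, 8 had 20 UMIs in the Ms4a4b cluster, and 4 of these were higher in the KO library and 0 lower, beside 26.5% of all genes in either direction, with a list median of 0.62 against 0.24 for all genes. They included Axin2, a target and inhibitor of Wnt signalling, at a log2 ratio of 1.74 (1.20 to 2.33), Bcl9l, a beta-catenin cofactor, at 0.96 (0.51 to 1.44) and Tle3, a corepressor, at 0.80 (0.48 to 1.14). In the Itm2a cluster 3 of 9 were higher and none lower, beside 19.2% of all genes, with Axin2 at 1.20 (0.68 to 1.75). Among 13 Ikaros relatives and NuRD subunits, the 2 that differed in the Ms4a4b cluster were Ikzf2 at -1.09 (-1.29 to -0.89) and Ikzf4 at -1.30 (-1.94 to -0.71), both lower in the KO library, where Foxp3 of regulatory T cells, which carry both, had no UMI, and in the Itm2a cluster Ikzf5 was higher at 0.67 (0.22 to 1.11). Of 11 ETS family genes, Fli1 (0.79, 0.50 to 1.09) and Ets2 (0.82, 0.41 to 1.24) were higher and Elk3 (-0.31, -0.69 to 0.069) lower in the KO Ms4a4b cluster, and none of 11 differed in the Itm2a cluster. Of 6 E and Id protein partners, Lmo4, a LIM-only adaptor, was lower at -0.62 (-0.96 to -0.28) in the Ms4a4b cluster, and none of 6 differed in the Itm2a cluster.

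Of 30 other T lineage factors, 30 had 20 UMIs in the Ms4a4b cluster, 5 of them higher and 7 lower in the KO library, beside 26.5% of all genes. In the Itm2a cluster 4 were higher and 3 lower of 30, beside 19.2%. Higher in the Ms4a4b cluster were Klf2, which drives exit from the thymus, at 1.26 (1.17 to 1.34), Gata3 at 0.99 (0.72 to 1.26), Zbtb7b at 0.96 (0.52 to 1.43) and Nfatc3 at 0.86 (0.62 to 1.11). Lower there were the receptor signal response genes Egr1 (-0.74, -1.13 to -0.36) and Nr4a1 (-0.79, -1.24 to -0.35), and Sox4 (-0.36, -0.53 to -0.19). In the Itm2a cluster Gata3 (0.78, 0.59 to 0.98) and Klf2 (0.70, 0.51 to 0.88) were higher and Runx3 lower (-0.49, -0.82 to -0.18). The progenitor factors that are silenced at T commitment were counted mainly in the proliferating group, where 7 of the 11 found in the matrix, of 12 listed, had 20 UMIs, 3 of them higher and 1 lower in the KO library, beside 10.8% of all genes. Later, 1 had 20 UMIs in the Rag1 group, 0 in the Cd5 group, 1 in the Itm2a cluster and then 3 in the Ms4a4b cluster, of which 1 and 2 were lower in the KO library.

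The genes with the most alike course were sought among 6144 genes over the 19 clusters, both libraries summed, by Pearson's r of log2 levels, a description over clusters that share libraries and differ in depth. Id3 ran closest to Dusp2 at r = 0.913, Cd2 at r = 0.890 and Rbm38 at r = 0.879, and Ikzf1 to Egr1 at r = 0.938, the early growth response gene, and to Gm42449 at r = 0.938 and Gm36932 at r = 0.938. Lef1 ran with Pglyrp2 at r = 0.951, Gata3 at r = 0.927 and Dgkz at r = 0.925, and Ets1 with Dgkz at r = 0.966, Pde4d at r = 0.955 and Il6st at r = 0.945. Bcl11b ran with Cep19 at r = 0.971, Lck at r = 0.965, the kinase of coreceptor signalling, and Trat1 at r = 0.949, and Tcf7 with Trbc2 at r = 0.956, Zfp579 at r = 0.946 and Ttc1 at r = 0.943. Tcf12 ran with Tctex1d1 at r = 0.967, Nim1k at r = 0.961 and Nck2 at r = 0.959, and Id2, the least matched member, with Ubash3b at r = 0.893, Lcp1 at r = 0.892 and Chd7 at r = 0.872. Satb1 ran with Gm37248 at r = 0.983, Tlk1 at r = 0.965 and C230085N15Rik at r = 0.962, but Gm37248 and C230085N15Rik lie inside Satb1 on its own strand, so their reads may be reads of Satb1 and the likeness is uncertain. Gm42449 likewise lies within the span of Lef1 on its strand. Among the members the closest pair was Lef1 with Ets1, at r = 0.89, and Id2 ran against Tcf12 at -0.68, Tcf7 at -0.58 and Bcl11b at -0.55.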

How the data were processed

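Per the labels and the study's methods, 10x Genomics 3′ libraries were made from whole thymus, 1 per condition from 5 pooled mice. The authors deposited whole-number raw UMI counts for each gene in each cell, after removing cells with under 200 or over 6000 genes or over 50000 reads. The submitters' processing notes name Cell Ranger 3.0.2, STAR, Seurat and mm10, and the annotation release was not given in the sources used here. Cells were grouped by the deposited clusters at resolution 1.5 and by WT or KO in the cell name.

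UMIs were summed per group and library and scaled to a total of 1000000 (CPM). Log2 ratios had 0.5 added to each sum and exact conditional binomial intervals, and were tested on simulated data. Those data were drawn by the counting model that the intervals assume, so they could not check for UMIs that lie unevenly over cells. Genes needed 20 UMIs over both libraries, and a count of 0 was taken to allow 3. The named relatives had at least 100 UMIs and lay at least 0.5 away from the all-gene median in the Itm2a or Ms4a4b cluster. The like-course genes were the 3 with the highest correlation per member among genes with 50 CPM in 1 cluster. Members and lists were chosen with earlier results of these data known. Scrublet's own threshold marked 2 WT and 0 KO cells, so doublets were kept, and leaving out the 6% with the highest scores was an alternative, beside cell filters, thinning, finer clusters and other scaling. The thinning left out 236 WT and 220 KO cells under 1000 UMIs. Tools were python 3.11.15, numpy 2.4.6, scipy 1.17.1, pandas 2.3.3, scanpy 1.11.5, R 4.3.3, edgeR 4.0.16 (TMM factors) and DESeq2 1.42.0 (size factors). Neither edgeR nor DESeq2 was used for a test, since a condition had 1 library. Promoter sequence came from the RefSeq promoter table and its GRCm38.p6 genome.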

Additional observations from a re-analysis of the deposited data

Results flagged for a closer look

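For 5 members the KO over WT log2 ratio pointed one way in some stage groups and the opposite way in others, in each case with a counting interval on that side of both 0 and the all-gene median. With 1 library per condition the difference between groups was not tested, and groups of fewer than 4 samples were not searched for outlying samples. Tcf7 was at 0.54 in the Ms4a4b cluster, against -0.095 in the proliferating group, -0.17 in the Rag1 group and -0.093 in the Cd5 group. Bcl11b was at 0.36 in the Itm2a cluster, against -0.063 in the proliferating and -0.16 in the Rag1 group. Ets1 was at 0.38 in the Itm2a cluster and at 0.64 in the Ms4a4b cluster, against -0.11 and -0.053 in the proliferating and Rag1 groups. Satb1 was at 0.34 in the Itm2a cluster and -0.14 in the proliferating group, and Id3 at 0.43 in the Ms4a4b cluster and -0.18 in the proliferating group. The all-gene medians were 0.036, 0.049, 0.037, 0.16 and 0.24 in the order of the groups.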

How the results depend on the processing

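No paired analysis was possible because each condition had 1 library, and leaving out a replicate was not possible for the same reason. Over the single members, 1431 values were computed under alternatives, of which 1099 stayed inside the counting interval of the reported value, 305 left it with the direction kept or uncertain and 27 turned direction. The cause of a turn was not tested unless the alternative itself names it. For the KO over WT ratio in the Itm2a cluster, Lef1 turned to -0.093 with thinned cells, to -0.0049 with TMM and to -0.0039 with DESeq2 scaling, and Tcf7 to -0.0020 and -0.00089 with these scalings. In the Itm2a-higher part Lef1 was at -0.14, Bcl11b at -0.0030, Satb1 at -0.062 and Id3 at -0.17. In the Ms4a4b cluster Bcl11b turned to -0.029 without ribosomal protein and mitochondrial genes in the totals, to -0.12 with TMM and to -0.083 with DESeq2 scaling. Without the cells with a UMI of the NK, NKT or ILC list, an alternative chosen after seeing the data, Bcl11b was at -0.063 and Id2 at 0.0058, and without those of any of the 3 lists, also chosen then, Bcl11b was at -0.047 and Satb1 at -0.038. Between stages in the WT library, Id2 in the Rag1 over the proliferating group turned to 0.22 without the 5% of cells with most UMIs and Id3 to -0.12 with TMM and -0.13 with DESeq2 scaling. In the Itm2a over the Cd5 group Lef1 turned to 0.062 and Bcl11b to 0.017 with thinned cells, and Bcl11b to 0.034 as a mean over cells. In the KO library Id3 in the Ms4a4b over the Itm2a cluster was at -0.0061 at resolution 1.8 and -0.0061 at resolution 2. For CD8-only over CD4-only cells of the Ms4a4b cluster alone, Lef1 was at 0.043 and Id2 at 0.0011 in the WT library, and Satb1 at 0.041 in the KO library.

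The median of the 9 members in the Itm2a cluster moved to 0.13 with thinned cells, 0.11 with TMM and 0.11 with DESeq2 scaling. In the Ms4a4b cluster it moved to 0.26 without ribosomal protein and mitochondrial genes, 0.17 with TMM and 0.21 with DESeq2 scaling. The count of members at least 0.5 away from the all-gene median became 0 in the proliferating group with thinned cells, as a mean over cells and without the 5% of cells with most UMIs, 1 in the Cd5 group and 2 in the Ms4a4b cluster with thinned cells, and 0 in the Ms4a4b cluster without the NK, NKT or ILC list's cells and without those of the 3 lists.

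Id UMIs per E protein UMI depended on the choice of E protein genes. With Tcf12 alone the WT and KO ratios were 0.688 and 0.572 in the proliferating group, 0.301 and 0.283 in the Rag1 group, 3.63 and 3.14 in the Cd5 group, 4.98 and 5.43 in the Itm2a and 4.90 and 3.22 in the Ms4a4b cluster. With thinned cells they were 0.384 and 0.336 in the proliferating and 2.66 and 2.30 in the Cd5 group, 0.261 in the WT Rag1 group, 3.51 in the KO Itm2a and 3.74 in the WT Ms4a4b cluster. Without doublets the ratio was 3.26 in the WT Itm2a and 2.86 in the KO Ms4a4b cluster, and without the 5% of cells with most UMIs 2.66 in the WT Itm2a cluster and 0.396 in the KO proliferating group. As a mean over cells it was 2.54 in the KO Ms4a4b cluster and 0.390 in the KO proliferating group. In the Ms4a4b cluster the WT and KO ratios were 2.29 and 2.60 without the NK, NKT or ILC list's cells and 1.98 and 2.79 without those of the 3 lists, so the order of the libraries turned.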
